A study of Mus musculus with 12 samples.

Results

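The interleukin-17 and interleukin-22 axis was read here as 9 genes of the mouse colon: the cytokine genes Il17a, Il17f and Il22, the inducing cytokine subunit Il23a, the receptor chain genes Il17ra, Il17rc, Il22ra1 and Il10rb, and the decoy receptor gene Il22ra2. The genes were chosen by symbol, and the 9 were among 35841 genes in the deposited table. Colon RNA was sequenced in 12 libraries of wild-type mice in 4 groups of 3. The DSS+ImP group received both agents (replicates 2, 3 and 4), the DSS group dextran sulfate sodium (replicates 2, 3 and 5), the ImP group the agent labelled ImP (replicates 1, 3 and 4), and the Ctrl group neither (replicates 1, 4 and 5). Dextran sulfate sodium injures the colon lining and is a standard agent for colitis in mice. ImP was given over 7 days and is not spelled out in the labels, and the study's title names Angelica dahurica polysaccharides, which no library label names. The labels give no strain, age or sex, and do not say whether each library came from its own animal, so each p-value covers the spread of these libraries alone, and that spread may be technical.

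Interleukin-17A and interleukin-17F are related cytokines of T helper 17 cells, gamma delta T cells and group 3 innate lymphoid cells, and they signal through a receptor built from the IL-17RA and IL-17RC chains. Their best known effects in the gut lining are the release of neutrophil-attracting chemokines and of antimicrobial proteins. Interleukin-22 comes from many of the same lymphocytes and acts on epithelial cells through IL-22RA1 paired with IL-10RB, where it drives STAT3 and the antimicrobial Reg3 lectins. IL-22RA2, also called IL-22 binding protein, is a soluble receptor that captures interleukin-22 and blocks it. Il23a encodes the subunit that makes interleukin-23 distinct from interleukin-12, and interleukin-23 from dendritic cells and macrophages sustains both cytokines.

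The promoters of Il17a and Il17f are shown because these neighbouring genes encode the paired cytokines of the family, and that of Il17rc because it is the receptor chain that was called in all 3 comparisons of DSS+ImP. RefSeq windows (GRCm38.p6) were matched for 5 of the 9 genes, Il17a, Il17f, Il22, Il17rc and Il22ra1, and each covers the 250 bases before the gene's start, printed 5′ to 3′ on the gene's own strand. Il17a lies at chr1:20730655-20730904 on the plus strand, Il17f at chr1:20784271-20784520 on the minus strand and Il17rc at chr6:113471205-113471454 on the plus strand. Capitals mark the nuclear receptor half-site AGGTCA, or TGACCT where it lies on the opposite strand, and the AP-1 motif TGANTCA.
Il17a promoter: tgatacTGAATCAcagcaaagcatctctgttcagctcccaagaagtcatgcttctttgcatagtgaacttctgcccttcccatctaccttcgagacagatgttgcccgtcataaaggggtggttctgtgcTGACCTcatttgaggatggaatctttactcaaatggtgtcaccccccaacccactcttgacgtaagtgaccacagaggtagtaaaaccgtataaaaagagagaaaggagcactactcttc
Il17f promoter: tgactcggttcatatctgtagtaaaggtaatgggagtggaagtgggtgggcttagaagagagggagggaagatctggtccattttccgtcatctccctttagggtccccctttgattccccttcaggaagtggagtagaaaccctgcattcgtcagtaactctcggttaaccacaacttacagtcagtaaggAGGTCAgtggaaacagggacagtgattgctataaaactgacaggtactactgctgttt
Il17rc promoter: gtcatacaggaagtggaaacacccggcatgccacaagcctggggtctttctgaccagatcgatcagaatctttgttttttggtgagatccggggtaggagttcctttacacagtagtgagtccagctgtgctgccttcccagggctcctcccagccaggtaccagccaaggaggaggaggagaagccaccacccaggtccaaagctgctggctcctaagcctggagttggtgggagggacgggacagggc
The half-site lay 120 bases before the start of Il17a, on the opposite strand, and 58 bases before that of Il17f, and the AP-1 letters lay 244 bases before the start of Il17a. Of 32851 windows of the same length, 14% held AGGTCA and 6.75% held TGANTCA on either strand. The windows of Il17rc and Il22 held none of these motifs, nor TTCNNNGAA, the STAT motif, which 7.02% of windows held, nor the NF-kB motif, which 3.9% held. The Il22ra1 window held TGANTCA 222 bases before the start.

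The libraries held between 55419380 and 67406087 counts each, and 1 read pair was worth about 4 counts, so the cytokine values below rest on few read pairs. All 9 genes passed the filter on low counts and were among 22279 genes tested, although Il17a and Il17f passed only through the groups in which they had counts. Colon markers such as Epcam were well above 0 in every library. Liver transcripts summed to 101 to 124 CPM, counts scaled to the library's size, in DSS 2 and every Ctrl library, against at most 3.31 CPM in the others, and pancreas transcripts reached 16.9 to 23.9 CPM in DSS 3, in DSS 5 and throughout ImP, against at most 2.27 CPM in the DSS+ImP libraries, 1.63 CPM in DSS 2 and 5.62 to 10.9 CPM in the Ctrl libraries. The DSS+ImP libraries alone were low in both, so for them the difference in trace and the treatment cannot be told apart. Every Ctrl library and no ImP library had the liver trace, so those groups alone cannot tell ImP from trace either. Tests below are edgeR's quasi-likelihood test over all 12 libraries with Benjamini-Hochberg adjustment over the 22279 genes, and a gene was called at an adjusted p under 0.05. In this bulk tissue, fewer cells of a type and less RNA per cell cannot be told apart.

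In DSS+ImP colons the receptor side of the axis shifted: Il17ra rose, Il17rc fell and the decoy gene Il22ra2 was lowest of the 4 groups. In DSS+ImP against DSS, 2 of the 9 genes were called, Il17ra higher and Il17rc lower, where 8.03% of all genes were called, 3.99% higher and 4.04% lower. Against ImP, 2 genes were called, Il17rc and Il22ra2, both lower, where 9.33% of all genes were called, 4.41% higher and 4.92% lower. Against Ctrl, 4 were called, Il17a and Il17ra higher and Il17rc and Il22ra2 lower, and 22.7% of all genes were called there, 10.9% higher and 11.8% lower. In DSS against Ctrl edgeR called 0 of the 9, with 3 at an unadjusted p under 0.05, where 2.8% of all genes were called, 1.21% higher and 1.59% lower. DESeq2 called 1, Il22ra2, and limma on log2 FPKM called 0, both at a pseudocount of 0.1 and, for the 5 genes left by its filter, at 1. In ImP against Ctrl edgeR, DESeq2 and limma called 0, with 2 at an unadjusted p under 0.05 where 1.99% of all genes were called, 1.06% higher and 0.929% lower. With the trace as a term, edgeR called 4 of all 22279 genes in ImP against Ctrl. For the interaction, the change from DSS to DSS+ImP less the change from Ctrl to ImP, edgeR called 0 of the 9 and 0% of all genes, with 1 of the 9 at an unadjusted p under 0.05. DESeq2 called none of the 9 but 710 of all genes, 2631 genes had an unadjusted p under 0.05, and edgeR called 492 without DSS+ImP 4 and 48 without Ctrl 5. The DSS, ImP and Ctrl libraries serve in more than one of these comparisons, so the comparisons are not independent of each other.

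Per kilobase of transcript, the receptor chains stood far above the cytokines. The deposited FPKM, fragments scaled for transcript length and library size, ranged over the 12 libraries from 19.1 to 28.7 for Il17rc, from 14.9 to 19.1 for Il10rb, from 9.11 to 12.9 for Il22ra1 and from 2.23 to 5.06 for Il17ra. These 4 ranges did not overlap, except that Il17rc and Il10rb met at 19.1 FPKM. Il22ra2 ranged from 0.0601 to 2.25 FPKM, Il22 from 0 to 1.64, Il17a from 0 to 0.729, Il23a from 0 to 0.356 and Il17f from 0 to 0.15 FPKM, and these 5 low ranges overlapped.

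Il17a (ENSMUSG00000025929), the gene of the founding cytokine of the family, was detected in every library given dextran sulfate sodium and in no Ctrl library. It had 0.252, 0.458 and 0.969 CPM in DSS+ImP 2, 3 and 4, and 0.0722, 0.34 and 0.751 CPM in DSS 2, 3 and 5. It had 0.161, 0 and 0.0596 CPM in ImP 1, 3 and 4, and 0 CPM in all 3 Ctrl libraries. The DSS+ImP and DSS libraries overlapped, and the DSS+ImP libraries were all above the ImP and Ctrl libraries. The summed counts were 114 in DSS+ImP, 75 in DSS, 14 in ImP and 0 in Ctrl. With the Ctrl group set at 12 counts, about 3 read pairs, summed Il17a was at least 7.66-fold higher in DSS+ImP than in Ctrl (adjusted p = 0.0111). Such a bound takes the libraries of a group together. The lowest, DSS+ImP 2, had 0.252 CPM, where 12 counts in Ctrl equal 0.0707 CPM. Il17a passed the low-count filter only through groups in which it had counts. Each of the 18 alternatives that tested Il17a called it, but they reuse the same libraries and are not independent support. A filter of at least 1 CPM in at least 6 libraries, and the filter of limma at a pseudocount of 1, left Il17a out. In DSS it was at least 5.72-fold higher than in Ctrl (adjusted p = 0.0619), which was not called. Within the libraries with the liver trace, DSS 2 had 0.0722 CPM and the Ctrl libraries 0. DSS+ImP against DSS gave a log2 change of 0.52 ± 1.06 (SE, adjusted p = 0.828), and DSS+ImP against ImP 2.89 ± 1.18 (adjusted p = 0.172). ImP against Ctrl rested on 14 counts, 10 of them in ImP 1 (adjusted p = 0.235).

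Il17f (ENSMUSG00000041872), whose product pairs with interleukin-17A or with itself, was sparser still. It had 0.0265, 0 and 0.2 CPM in DSS+ImP 2, 3 and 4, and 0.0722, 0.217 and 0.123 CPM in DSS 2, 3 and 5. It had 0.371, 0 and 0 CPM in ImP 1, 3 and 4, and 0 CPM in the 3 Ctrl libraries. All 3 DSS libraries had counts, and the single highest value was that of ImP 1, the library that also led the ImP group in Il17a and Il22. With 15, 26, 23 and 0 counts summed over DSS+ImP, DSS, ImP and Ctrl, DSS was at least 1.98-fold above Ctrl (adjusted p = 0.314) and DSS+ImP at least 1.01-fold (adjusted p = 0.206). No difference in Il17f was detectable at this depth, including DSS+ImP against DSS (log2 change -0.87 ± 1.74, SE, adjusted p = 0.824).

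Il22 (ENSMUSG00000074695), the gene of the epithelial defence cytokine, varied as much within groups as between them. It had 0.106, 1.07 and 0.646 CPM in DSS+ImP 2, 3 and 4, and 0.668, 0.155 and 0.184 CPM in DSS 2, 3 and 5. It had 2.16, 0.455 and 0.0894 CPM in ImP 1, 3 and 4, and 0.196, 0 and 0.0682 CPM in Ctrl 1, 4 and 5. Every group of treated libraries overlapped with Ctrl, and ImP 1 was the highest library. The log2 change was 2.76 ± 1.29 (SE, adjusted p = 0.154) for DSS+ImP against Ctrl, 3.32 ± 1.31 (adjusted p = 0.24) for ImP against Ctrl and 1.89 ± 1.29 (adjusted p = 0.545) for DSS against Ctrl. DSS+ImP against DSS gave 0.86 ± 1.17 (adjusted p = 0.724). A near-identical copy of Il22 in the mouse genome, Iltifb, was not analysed here, so reads from the copy could have been counted for Il22 or lost from it.

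Il23a (ENSMUSG00000025383), the interleukin-23 subunit gene, differed in no comparison beyond its spread. It had 0.822, 0.372 and 0.108 CPM in DSS+ImP 2, 3 and 4, and 0.433, 0.418 and 0 CPM in DSS 2, 3 and 5. It had 0.387, 0.211 and 0.283 CPM in ImP 1, 3 and 4, and 0, 0.236 and 0.273 CPM in Ctrl 1, 4 and 5. All 4 groups overlapped, and DSS+ImP against DSS gave a log2 change of 0.62 ± 1.23 (SE, adjusted p = 0.822). The same was so of its partner genes: of Il12b, the shared subunit of interleukin-12 and interleukin-23, Il12a, Il23r, Il12rb1 and Il12rb2, 0 of 5 were called by edgeR in any of the 6 comparisons. Il12b averaged 0.275 ± 0.142 CPM in DSS+ImP, 0.328 ± 0.119 in DSS, 0.571 ± 0.421 in ImP and 0.185 ± 0.167 in Ctrl (SD, n = 3 each). Il23r, the receptor chain that marks interleukin-23 responsive lymphocytes, averaged 0.206, 0.219, 0.0753 and 0.269 CPM in DSS+ImP, DSS, ImP and Ctrl, and was at 0 in ImP 3 and ImP 4.

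**Figure D1:**
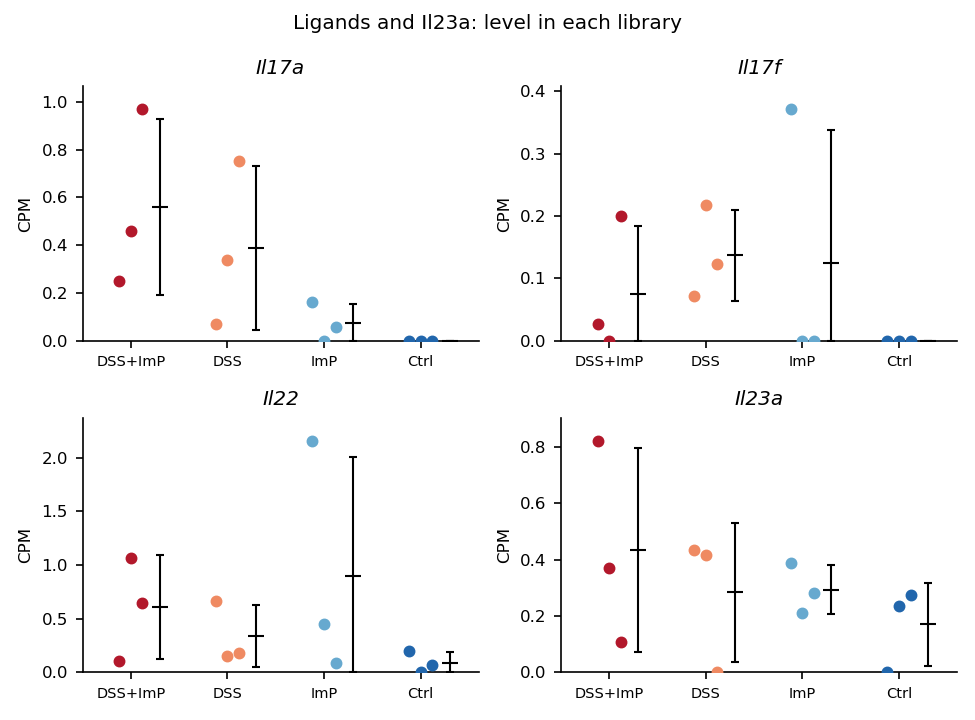
CPM of Il17a, Il17f, Il22 and Il23a in each of the 12 libraries (points) by group, with the group mean (dash) and SD (bars, ended at 0). Il17a lies at 0 in all 3 Ctrl libraries and at 0.252 to 0.969 CPM in the DSS+ImP libraries, while Il22 and Il23a overlap between groups.

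Il17ra (ENSMUSG00000002897), the chain shared by most interleukin-17 receptors and made in many blood and tissue cells, rose in DSS+ImP colons. It had 36.2, 46.1 and 32.4 CPM in DSS+ImP 2, 3 and 4, and 26.4, 28.2 and 24.4 CPM in DSS 2, 3 and 5. It had 32.2, 26.7 and 33.1 CPM in ImP 1, 3 and 4, and 23.9, 28.6 and 30.7 CPM in Ctrl 1, 4 and 5. All DSS+ImP libraries were above all DSS and Ctrl libraries, while DSS+ImP 4 lay within the ImP range. The means were 38.3 ± 7.08 CPM in DSS+ImP and 26.3 ± 1.93 CPM in DSS (SD, n = 3 each), 1.45-fold higher in DSS+ImP (log2 change 0.54 ± 0.15, SE, adjusted p = 0.0417). Against Ctrl, at 27.7 ± 3.51 CPM, the log2 change was 0.46 ± 0.15 (adjusted p = 0.0377), and against ImP, at 30.7 ± 3.43 CPM, it was 0.32 ± 0.14 (adjusted p = 0.211). The call against DSS lay close to the threshold. It was lost without any one of DSS+ImP 2, DSS+ImP 3, DSS 2, DSS 3, DSS 5, ImP 1, ImP 4, Ctrl 4 or Ctrl 5 (log2 change 0.38 to 0.59, adjusted p up to 0.187). The call against Ctrl was lost without DSS+ImP 2, DSS+ImP 3, Ctrl 1 or Ctrl 4 (adjusted p up to 0.153). DSS against Ctrl gave -0.07 ± 0.15. The 10 neutrophil markers summed to at least 429 CPM in DSS+ImP, at most 135 CPM in DSS and at most 255 CPM in ImP. In Ctrl they summed to at most 11.5 CPM, with Ngp and Mmp8 at 0 in every Ctrl library. Every DSS and ImP library was above every Ctrl library in this sum, but in those 2 groups much of it was Ly6g. Ly6g averaged 245 CPM in DSS+ImP, 70.1 in DSS, 125 in ImP and 3.47 in Ctrl. Retnlg averaged 72.5, 2.96, 0.362 and 0.626 CPM in the same order of groups. In ImP against Ctrl, Ly6g was the 1 gene of the 10 called higher, where 1.06% of all genes were. That call was lost without Ctrl 1 or Ctrl 4. For Il17ra, ImP against Ctrl gave a log2 change of 0.15 ± 0.15 (SE). The 10 myeloid markers summed to between 303 and 613 CPM in DSS+ImP, between 141 and 219 CPM in DSS, between 212 and 278 CPM in ImP and between 167 and 194 CPM in Ctrl. Their part in the result was not tested.

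Il17rc (ENSMUSG00000030281), the chain that joins IL-17RA in the receptor for interleukin-17A and interleukin-17F and that is abundant on epithelial and stromal cells, fell in DSS+ImP colons. It had 60.4, 53.6 and 62.3 CPM in DSS+ImP 2, 3 and 4, and 84.4, 83.9 and 74.6 CPM in DSS 2, 3 and 5. It had 77.6, 81.4 and 85.2 CPM in ImP 1, 3 and 4, and 90.7, 73.0 and 87.1 CPM in Ctrl 1, 4 and 5. Each DSS+ImP library was below all 9 others, and the other 3 groups overlapped. The means were 58.8 ± 4.53 CPM in DSS+ImP, 80.9 ± 5.55 in DSS, 81.4 ± 3.79 in ImP and 83.6 ± 9.36 in Ctrl (SD, n = 3 each). The log2 change in DSS+ImP was -0.46 ± 0.10 (SE) against DSS (1.38-fold lower, adjusted p = 0.0191), -0.47 ± 0.10 against ImP (adjusted p = 0.0128) and -0.51 ± 0.10 against Ctrl (adjusted p = 0.00374). The call against DSS was lost without DSS+ImP 3 or DSS 2 (adjusted p up to 0.0826) and that against ImP without DSS+ImP 3 (adjusted p = 0.0597), while that against Ctrl held without any one library (adjusted p up to 0.0216). DSS against Ctrl gave -0.05 ± 0.10. The interaction was -0.42 ± 0.14 (unadjusted p = 0.0118, adjusted p = 0.245), so a difference between the effect of ImP on DSS colons and its effect on untreated colons was not called. The 10 epithelial markers summed to between 14800 and 20400 CPM in DSS+ImP, between 23400 and 24500 CPM in DSS, between 21100 and 29300 CPM in ImP and between 25700 and 27300 CPM in Ctrl. The DSS+ImP libraries were below all others in this sum. In DSS+ImP against Ctrl, 4 of the 10 were called lower and 0 higher, where 11.8% of all genes were called lower. Cdh1, which was not called, averaged 793 CPM in DSS+ImP and 780 CPM in Ctrl. The part of epithelial cells in the result was not tested.

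The balance of both interleukin-17 receptor chains was compared per length. The FPKM of Il17rc over that of Il17ra was 5.41, 3.77 and 6.22 in DSS+ImP 2, 3 and 4, and 10.4, 9.65 and 9.93 in DSS 2, 3 and 5. It was 7.83, 9.89 and 8.35 in ImP 1, 3 and 4, and 12.3, 8.28 and 9.2 in Ctrl 1, 4 and 5. The DSS+ImP libraries were below all 9 others. The ratio averaged 5.13 ± 1.25 in DSS+ImP, 9.99 ± 0.379 in DSS, 8.69 ± 1.07 in ImP and 9.93 ± 2.11 in Ctrl (SD, n = 3 each). An exact two-sided permutation test gave p = 0.1 for DSS+ImP against each other group, the smallest p that 3 libraries against 3 allow, p = 1.0 for DSS against Ctrl and p = 0.6 for ImP against Ctrl. The 3 tests of DSS+ImP were among 15 such tests on 3 chain comparisons, and with none able to pass 0.05 no adjustment could make a call.

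**Figure D2:**
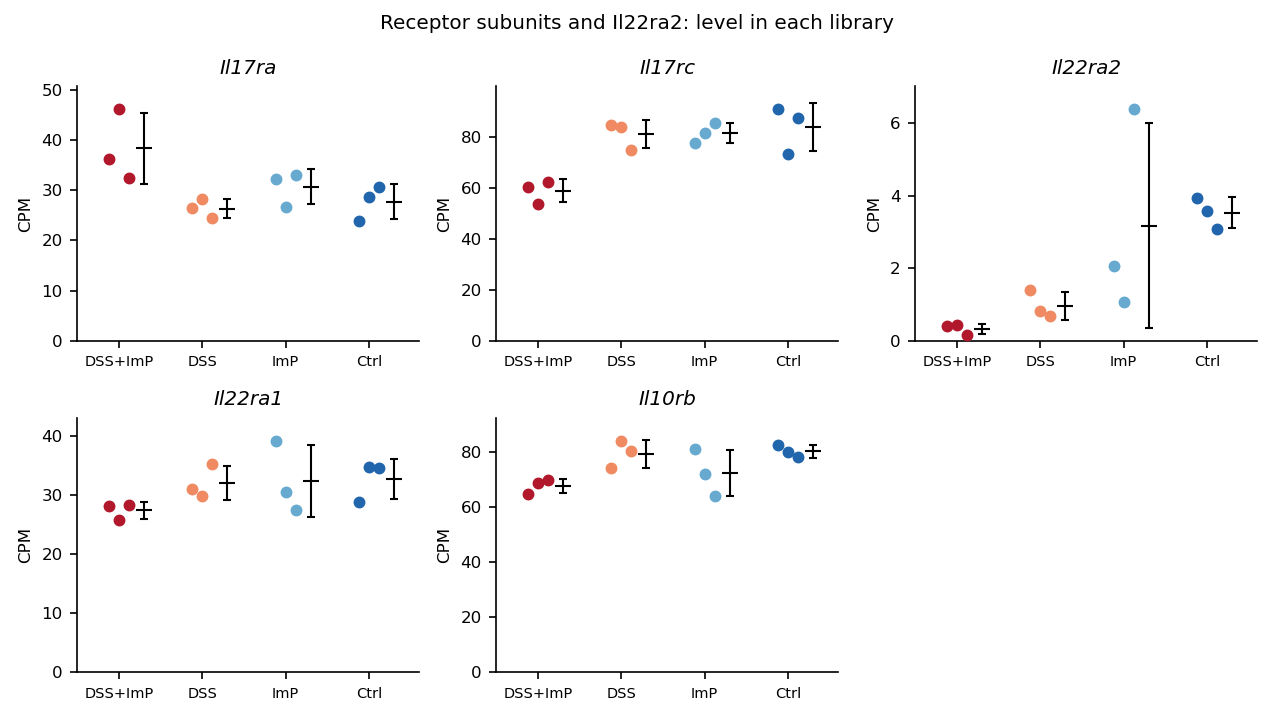
CPM of Il17ra, Il17rc, Il22ra2, Il22ra1 and Il10rb in each of the 12 libraries (points) by group, with the group mean (dash) and SD (bars). The DSS+ImP libraries lie lowest for Il17rc, at 53.6 to 62.3 CPM, and for Il22ra2, at 0.169 to 0.429 CPM.

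Il22ra2 (ENSMUSG00000039760), the gene of the soluble interleukin-22 decoy, which dendritic cells are known to make in the gut, was low in both groups given dextran sulfate sodium. It had 0.398, 0.429 and 0.169 CPM in DSS+ImP 2, 3 and 4, and 1.39, 0.82 and 0.675 CPM in DSS 2, 3 and 5. It had 2.05, 1.07 and 6.38 CPM in ImP 1, 3 and 4, and 3.93, 3.58 and 3.07 CPM in Ctrl 1, 4 and 5. All DSS+ImP libraries were below all 9 others, all DSS libraries were below all Ctrl libraries, and the ImP libraries lay on both sides of Ctrl. The means were 0.332 ± 0.142 CPM in DSS+ImP, 0.962 ± 0.378 in DSS, 3.17 ± 2.82 in ImP and 3.53 ± 0.43 in Ctrl (SD, n = 3 each). DSS+ImP was 10.5-fold below Ctrl (log2 change -3.40 ± 0.62, SE, adjusted p = 0.00217), a call that every one of 20 alternatives kept, and 9.46-fold below ImP (-3.24 ± 0.62, adjusted p = 0.00684). Without ImP 4, the highest library, the log2 change against ImP was -2.23, still called (adjusted p = 0.0244 or less without any one library). DSS+ImP against DSS gave -1.52 ± 0.60 (adjusted p = 0.141) and was called in none of 20 alternatives. DSS against Ctrl gave -1.88 ± 0.58 (adjusted p = 0.117). DESeq2 called it (adjusted p = 0.0195), as did edgeR without ImP 4 (adjusted p = 0.0381). With the trace as a term it was -1.32 (adjusted p = 0.609). Within the libraries with the liver trace, the single DSS library, DSS 2, had 1.39 CPM and the 3 Ctrl libraries had 3.07 CPM or more. ImP against Ctrl gave -0.15 ± 0.55 (adjusted p = 0.941). The counts behind these values summed to 71 in DSS+ImP, 174 in DSS, 621 in ImP and 597 in Ctrl. Of the dendritic cell markers, Itgax averaged 14.7, 12.6, 19.4 and 18.0 CPM in DSS+ImP, DSS, ImP and Ctrl, Zbtb46 4.1, 2.79, 2.96 and 3.04 CPM, and Flt3 2.5, 2.87, 2.56 and 2.35 CPM. Cd209a averaged 0.357 CPM in DSS+ImP, 0.872 in DSS, 0.88 in ImP and 0.481 in Ctrl. The part of dendritic cells in the result was not tested.

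The decoy and its ligand were compared per length. Il22ra2 had 0.153, 0.161 and 0.0601 FPKM in DSS+ImP 2, 3 and 4, where Il22 had 0.0895, 0.907 and 0.519. In Ctrl 1, 4 and 5, Il22ra2 had 1.27, 1.25 and 1.08 FPKM, where Il22 had 0.133, 0 and 0.0537. The decoy transcript was above the ligand transcript in 1 of 3 DSS+ImP libraries, 2 of 3 DSS, 2 of 3 ImP and 3 of 3 Ctrl libraries. The difference, Il22ra2 less Il22, averaged -0.38 ± 0.41 FPKM in DSS+ImP, 0.0758 ± 0.0983 in DSS, 0.417 ± 1.6 in ImP and 1.14 ± 0.115 in Ctrl (SD, n = 3 each). The DSS+ImP and the DSS libraries each lay below all Ctrl libraries (exact two-sided permutation p = 0.1 for each, the smallest possible), and the DSS+ImP and DSS libraries overlapped (exact permutation p = 0.2).

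**Figure D3:**
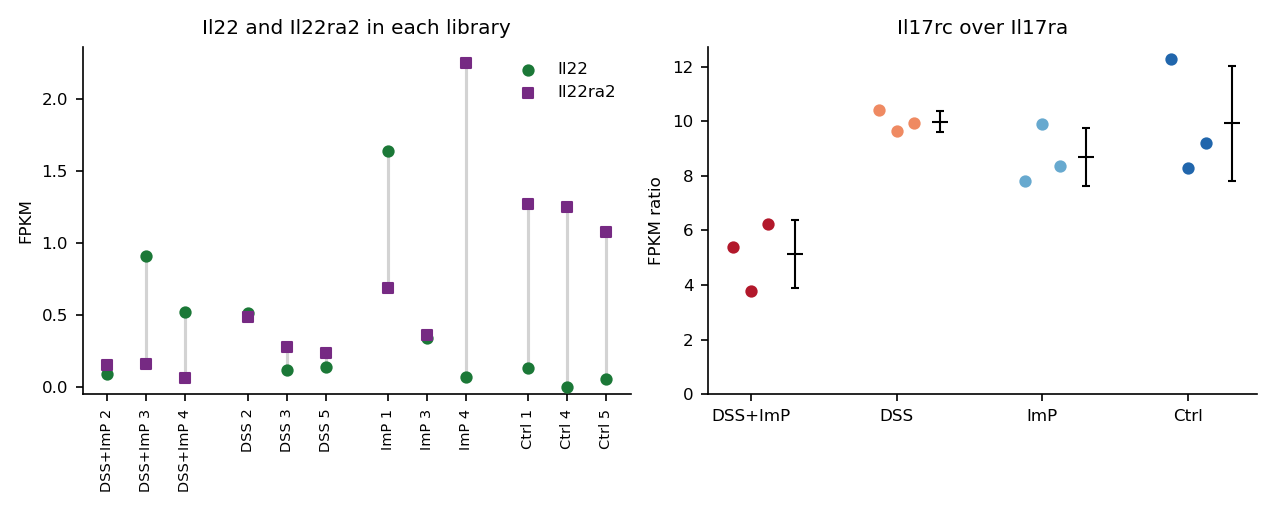
Left, FPKM of Il22 and of Il22ra2 in each of the 12 libraries. Right, the FPKM of Il17rc divided by that of Il17ra in each library with the group mean and SD. Il22ra2 exceeds Il22 in all 3 Ctrl libraries and in 1 of 3 DSS+ImP libraries, and the receptor ratio is 3.77 to 6.22 in DSS+ImP libraries and at least 7.83 elsewhere.

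Neither chain of the signalling interleukin-22 receptor was called in any comparison. Il22ra1 (ENSMUSG00000037157), the chain that confines the response to epithelial and related cells, had 28.2, 25.7 and 28.3 CPM in DSS+ImP 2, 3 and 4, and 31.1, 29.8 and 35.3 CPM in DSS 2, 3 and 5. It had 39.2, 30.6 and 27.5 CPM in ImP 1, 3 and 4, and 28.9, 34.8 and 34.5 CPM in Ctrl 1, 4 and 5. The DSS+ImP libraries lay below all DSS and Ctrl libraries and overlapped with ImP. The log2 change was -0.23 ± 0.13 (SE, adjusted p = 0.346) against DSS and -0.26 ± 0.13 (adjusted p = 0.207) against Ctrl, and neither was called. Il10rb (ENSMUSG00000022969), the widely made chain shared with the interleukin-10 receptor, had 64.9, 68.7 and 69.9 CPM in DSS+ImP 2, 3 and 4, and 74.1, 84.2 and 80.4 CPM in DSS 2, 3 and 5. It had 81.1, 72.1 and 64.1 CPM in ImP 1, 3 and 4, and 82.5, 80.2 and 78.1 CPM in Ctrl 1, 4 and 5. DSS+ImP was below all DSS and Ctrl libraries here too, with log2 changes of -0.23 ± 0.09 (SE, adjusted p = 0.156) and -0.24 ± 0.09 (adjusted p = 0.085), neither called. The FPKM of Il10rb over Il22ra1 averaged 1.67 ± 0.125 in DSS+ImP, 1.69 ± 0.197 in DSS, 1.52 ± 0.11 in ImP and 1.67 ± 0.226 in Ctrl (SD, n = 3 each), with overlap in every pair of groups compared. In DSS against Ctrl, the log2 change was -0.03 ± 0.13 for Il22ra1 and -0.01 ± 0.09 for Il10rb.

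**Figure D4:**
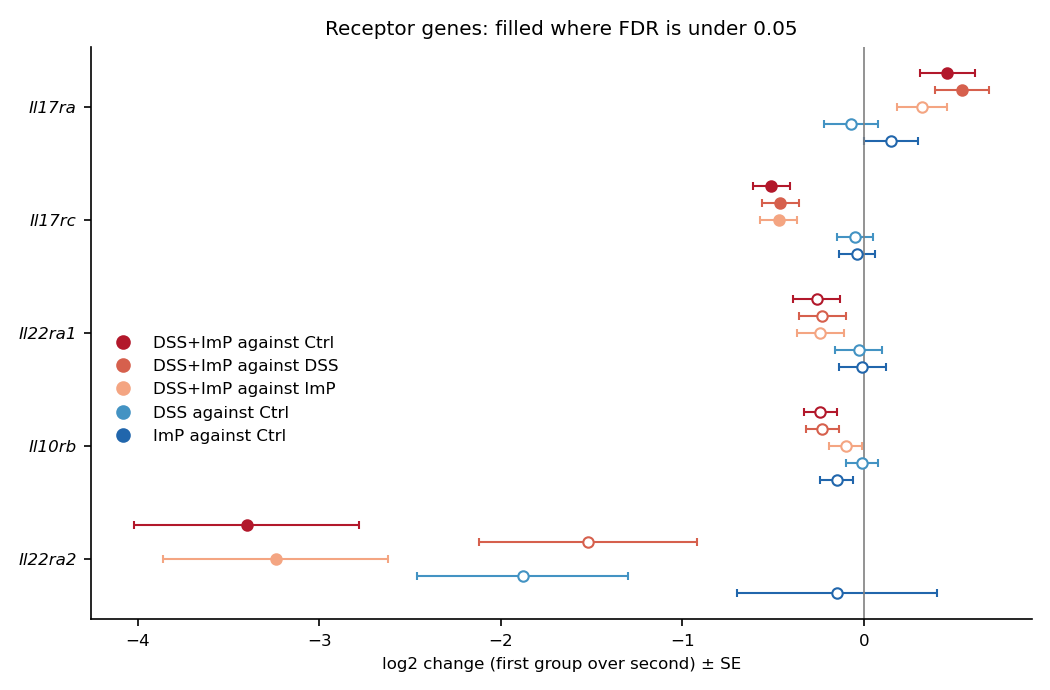
Log2 change with its SE of the 5 receptor genes in 5 comparisons, filled where the adjusted p was under 0.05. Il17rc is called lower in all 3 comparisons of DSS+ImP, at -0.46 to -0.51, and Il22ra2 in those against ImP and Ctrl, at -3.24 and -3.40, while no receptor gene is called in DSS against Ctrl or ImP against Ctrl.

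Related genes of both receptor families were measured too. Of 6 other interleukin-17 family genes tested, 1 was called lower in DSS+ImP against DSS and 0 higher, where 4.04% of all genes were called lower. In DSS+ImP against Ctrl 2 were called lower and 0 higher, where 11.8% of all genes were called lower. The gene in common was Il25, the cytokine gene of tuft cells, which had 0 counts in all 3 DSS+ImP libraries, against 0.163, 0.0928 and 0.107 CPM in DSS 2, 3 and 5 and 0.321, 0.182 and 0.119 CPM in Ctrl 1, 4 and 5. It was at least 3.62-fold lower in DSS+ImP than in Ctrl (adjusted p = 0.0039) and at least 2.08-fold lower than in DSS (adjusted p = 0.0211), the second lost without DSS+ImP 2, DSS+ImP 3, DSS 2 or DSS 5. The call against DSS rested on 22 counts, and DESeq2 called 0 of these 6 genes lower in that comparison. Il17re, the interleukin-17C receptor chain of epithelium, averaged 9.75 ± 1.68 CPM in DSS+ImP and 16.0 ± 1.64 CPM in Ctrl (SD, n = 3 each), a log2 change of -0.71 ± 0.20 (SE, adjusted p = 0.0258) lost without DSS+ImP 2, DSS+ImP 4, Ctrl 4 or Ctrl 5. Of 6 tested genes that share Il10rb or its relatives, 1 was called higher in DSS+ImP against DSS, where 3.99% of all genes were, and 2 without DSS+ImP 4. In DSS+ImP against Ctrl 3 were called higher, Il10ra, Il19 and Il20ra, where 10.9% of all genes were. The count of 3 was 1 without Ctrl 4, Ctrl 5 or DSS+ImP 3. The gene called against DSS was Il10ra, the interleukin-10 binding chain of leukocytes. It had 17.5, 21.4 and 15.0 CPM in DSS+ImP 2, 3 and 4, against 6.68, 10.5 and 8.36 CPM in DSS 2, 3 and 5, with no overlap (log2 change 1.07 ± 0.20, SE, adjusted p = 0.0104). Against Ctrl it was 0.72 ± 0.20 (adjusted p = 0.0229), lost without Ctrl 4, Ctrl 5 or DSS+ImP 3. Il19, a cytokine gene of the interleukin-20 family, had 0 counts in Ctrl and was at least 15.3-fold higher in DSS+ImP (adjusted p = 0.0394). Its groups overlapped, and the call was lost without Ctrl 1, Ctrl 4, Ctrl 5, DSS+ImP 3, DSS+ImP 4, DSS 2 or ImP 4. Il20ra, the chain for interleukin-20 family cytokines, had 0 counts in Ctrl and was at least 7.8-fold higher in DSS+ImP than in Ctrl (adjusted p = 0.00197). It was at least 2.98-fold higher in DSS (adjusted p = 0.029, lost without Ctrl 1, Ctrl 4, Ctrl 5, DSS 2 or DSS 5) and at least 3.86-fold higher in ImP (adjusted p = 0.033, lost without Ctrl 1, Ctrl 4, Ctrl 5, DSS+ImP 2, DSS 5 or ImP 4). The call in DSS rested on 39 counts, and DESeq2 called 0 of these 6 genes higher in DSS against Ctrl.

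Genes known to respond to interleukin-17 were called higher in DSS+ImP than in DSS for 11 of 19 listed and lower for 1. Of all genes, 3.99% were called higher and 4.04% lower. The median log2 change over the list was 2.62, against 0.02 over all genes tested. The 11 were Cxcl1, Cxcl2, Cxcl3, Cxcl5, Csf3, Il6, Lcn2, Mmp3, Mmp13, S100a8 and S100a9. S100a8 and S100a9 are also neutrophil granule genes, and many of the others answer to other inflammatory signals too. Cxcl2, a neutrophil-attracting chemokine, had 68.0, 157 and 81.3 CPM in DSS+ImP 2, 3 and 4, against 3.9, 8.68 and 2.24 CPM in DSS 2, 3 and 5. Lcn2, an iron-sequestering antimicrobial protein, had 103, 274 and 91.5 CPM in DSS+ImP 2, 3 and 4, against 14.1, 15.1 and 10.1 CPM in DSS 2, 3 and 5. The groups did not overlap in either gene, and the log2 changes were 4.37 ± 0.59 (SE, adjusted p = 0.00422) for Cxcl2 and 3.58 ± 0.44 (adjusted p = 0.00419) for Lcn2. Csf3, the granulocyte growth factor, averaged 10.9 ± 5.76 CPM in DSS+ImP and 0.237 ± 0.107 CPM in DSS (SD, n = 3 each; log2 change 5.50 ± 0.72, SE, adjusted p = 0.00494), and Cxcl3 31.8 ± 18.5 CPM in DSS+ImP and 1.0 ± 0.353 CPM in DSS (4.98 ± 0.61, adjusted p = 0.00419). The gene called lower was Pigr, the transporter of IgA across epithelium, with a log2 change of -0.66 ± 0.17 (adjusted p = 0.0339) lost without DSS+ImP 2, DSS+ImP 3, DSS 2 or DSS 5. The count of 11 was 7 without DSS+ImP 3 and 6 without DSS 5.

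In DSS against Ctrl, where 1.21% of all genes were called higher, 10 of the 19 were called higher and 0 lower, with a median of 2.67. S100a9 averaged 10.0 ± 5.4 CPM in DSS and 0.0962 ± 0.0855 CPM in Ctrl (SD, n = 3 each; log2 change 6.70 ± 0.98, SE, adjusted p = 0.00467), and Cxcl5, another neutrophil chemokine, 9.34 ± 4.89 CPM in DSS and 0.246 ± 0.0826 CPM in Ctrl (5.23 ± 0.86, adjusted p = 0.00757). The count of 10 was 4 without Ctrl 1, 4 without Ctrl 4, 3 without Ctrl 5 and 6 without DSS 5, and it was 3 with the trace as a term. DSS 2 was the only DSS library with the liver trace, so a count within those libraries would rest on 1 DSS library and is not given. In ImP against Ctrl, where 1.06% of all genes were called higher, 2 were called higher, Nox1 (adjusted p = 0.0403) and Cxcl5 (adjusted p = 0.0486). Both were lost without any one of Ctrl 1, Ctrl 4, Ctrl 5, DSS+ImP 2, DSS 3, DSS 5 or ImP 1, Nox1 also without ImP 4, and Cxcl5 also without DSS+ImP 4, DSS 2 or ImP 3. DSS+ImP against ImP gave 11 higher and 0 lower with a median of 3.62, where 4.41% of all genes were called higher. DSS+ImP against Ctrl gave 16 and 0 with a median of 5.34, where 10.9% of all genes were called higher. Il17a and Il17f themselves stayed under 1 CPM in every library.

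Among 13 genes of the interleukin-17 signal chain, 2 were called higher in DSS+ImP against DSS and 0 lower, with a median log2 change of 0.06. Of all genes, 3.99% were called higher there and 4.04% lower. Arid5a, an RNA-binding protein that stabilises interleukin-17 target transcripts, had 26.0, 31.2 and 29.5 CPM in DSS+ImP 2, 3 and 4, against 14.2, 14.7 and 12.6 CPM in DSS 2, 3 and 5. The groups did not overlap (log2 change 1.06 ± 0.17, SE, adjusted p = 0.00566), and the call held without any one library. Cebpb, a transcription factor of the same pathway, averaged 28.9 ± 22.7 CPM in DSS+ImP and 4.77 ± 3.56 CPM in DSS (SD, n = 3 each), and its call (2.60 ± 0.72, SE, adjusted p = 0.046) was lost without any one of 8 libraries, namely DSS+ImP 2, DSS+ImP 3, DSS 2, DSS 5, ImP 4, Ctrl 1, Ctrl 4 and Ctrl 5. In DSS against Ctrl 1 was called, the related factor Cebpd, with 46.0, 40.4 and 43.1 CPM in DSS 2, 3 and 5, against 11.7, 13.5 and 21.5 CPM in Ctrl 1, 4 and 5. Its log2 change was 1.47 ± 0.26 (SE, adjusted p = 0.0119), lost without Ctrl 1 or Ctrl 4. In DSS against Ctrl 1.21% of all genes were called higher. Traf3ip2, which encodes the adaptor Act1 at the receptor itself, averaged 30.3 ± 3.23 CPM in DSS+ImP, 31.3 ± 1.58 in DSS, 33.4 ± 2.47 in ImP and 26.9 ± 1.12 in Ctrl (SD, n = 3 each) and was called in no comparison.

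Genes known to respond to interleukin-22 gave another count. In DSS+ImP against DSS, 1 of 12 was called higher and 0 lower, where 3.99% of all genes were called higher and 4.04% lower. The median log2 change was -0.38. The 1 was Saa3, an acute-phase protein of epithelium and macrophages, with 293, 800 and 272 CPM in DSS+ImP 2, 3 and 4, against 47.7, 63.1 and 64.6 CPM in DSS 2, 3 and 5. There was no overlap (log2 change 2.96 ± 0.61, SE, adjusted p = 0.0152), and the call was lost without DSS+ImP 3, DSS 2 or DSS 5. The Reg3 lectins had the opposite sign. Reg3b had 1070, 1360 and 6640 CPM in DSS+ImP 2, 3 and 4, against 14400, 8870 and 11700 CPM in DSS 2, 3 and 5, and Reg3g 206, 320 and 1710 CPM in DSS+ImP, against 3630, 1970 and 3440 CPM in DSS. DSS+ImP 4 was the highest of its group in both genes, yet all DSS+ImP libraries lay below all DSS libraries. The log2 changes were -1.95 ± 0.74 (SE, adjusted p = 0.13) for Reg3b, -2.01 ± 0.79 (adjusted p = 0.14) for Reg3g and -1.88 ± 0.57 (adjusted p = 0.0631) for Reg3a, none called by edgeR. DESeq2 called 2 of the 12 genes lower. In edgeR without DSS+ImP 4, 3 of the 12 genes were called lower, and without ImP 4, 1.

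In DSS against Ctrl, 5 of these 12 were called higher and 0 lower, with a median of 2.07, namely Il18, Lrg1, Muc1, Retnlb and Saa1. Of all genes, 1.21% were called higher there. Il18, an epithelial cytokine gene, had 69.0, 47.7 and 49.2 CPM in DSS 2, 3 and 5, against 10.7, 10.0 and 9.35 CPM in Ctrl 1, 4 and 5 (log2 change 2.46 ± 0.33, SE, adjusted p = 0.00296). In ImP it had 78.3, 68.0 and 30.0 CPM (2.55 ± 0.33 against Ctrl, adjusted p = 0.00564) and in DSS+ImP 40.0, 74.8 and 62.8 CPM (2.56 ± 0.33, adjusted p = 0.000252). Every library that received an agent was above every Ctrl library in Il18, and the 3 calls held without any one library. The ImP and DSS+ImP libraries were also all low in the liver trace, which every Ctrl library had. Muc1, a membrane mucin, averaged 15.4 ± 6.37 CPM in ImP and 1.76 ± 0.708 CPM in Ctrl (SD, n = 3 each; log2 change 3.13 ± 0.37, SE, adjusted p = 0.00564). The count of 5 was 1 without Ctrl 1, Ctrl 4 or DSS 5, 2 without Ctrl 5 or DSS 2, 8 without DSS+ImP 4 and 9 without ImP 4, and it was 10 with DESeq2. It was 1 with the trace as a term. In ImP against Ctrl, 4 of the 12 were called higher, Il18, Lrg1, Muc1 and Saa1, with a median of 1.28, and 2 without any one Ctrl library. In that comparison 1.06% of all genes were called higher. Saa1 has a near-identical neighbour, Saa2, so its reads may be split between them.

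**Figure D5:**
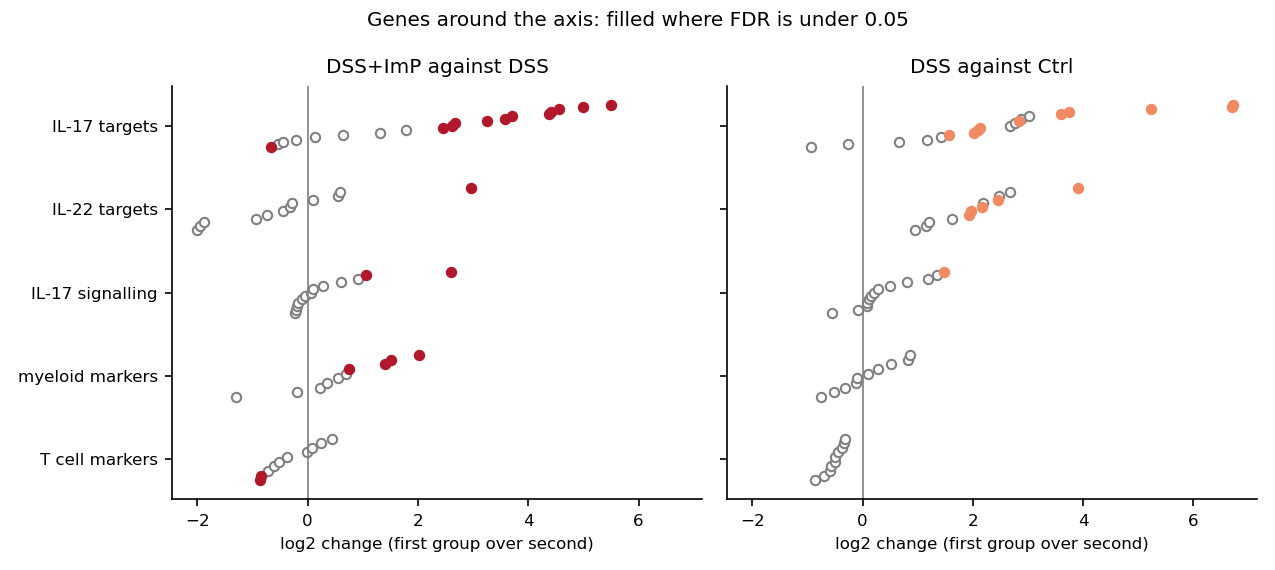
Log2 changes of the genes of 5 lists, response genes of both cytokines, signal genes of interleukin-17 and markers of myeloid cells and T cells, in DSS+ImP against DSS and in DSS against Ctrl, each point a gene, filled where called; a gene with 0 counts in a group is drawn at its bound. In DSS+ImP against DSS, the interleukin-17 response genes have a median of 2.62 and the interleukin-22 response genes one of -0.38, and in DSS against Ctrl the medians are 2.67 and 2.07.

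Genes of the interleukin-22 signal chain were also measured. Socs3, the feedback inhibitor induced by STAT3, had 107, 83.5 and 109 CPM in DSS 2, 3 and 5, against 21.3, 31.4 and 32.8 CPM in Ctrl 1, 4 and 5. It was higher in DSS with no overlap (log2 change 1.81 ± 0.35, SE, adjusted p = 0.0163), a call lost without Ctrl 1, Ctrl 4 or DSS 5. In DSS+ImP against DSS its log2 change was 0.73 ± 0.34 (SE, adjusted p = 0.206), which was not called. In DSS+ImP against Ctrl, Socs3, Stat3 and Jak1 were called higher. Stat3 averaged 248 ± 43.2 CPM in DSS+ImP and 154 ± 8.12 CPM in Ctrl (SD, n = 3 each), a log2 change of 0.69 ± 0.12 (SE, adjusted p = 0.00193).

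T cells are a source of these cytokines. Of 10 T cell genes, Cd8a and Cd3e were called lower in DSS+ImP against DSS and 0 higher, where 4.04% of all genes were called lower. Cd3e, a chain of the T cell receptor complex, averaged 3.29 ± 0.688 CPM in DSS+ImP and 6.0 ± 0.535 CPM in DSS (-0.87 ± 0.20, adjusted p = 0.0212), lost without DSS+ImP 2, DSS+ImP 3, DSS 3 or DSS 5. The 10 T cell genes summed to between 55.0 and 64.8 CPM in DSS+ImP, between 71.5 and 80.7 CPM in DSS, between 65.5 and 120 CPM in ImP and between 98.1 and 116 CPM in Ctrl. The DSS+ImP libraries were thus lowest in this sum. In Il17a the DSS+ImP and DSS libraries overlapped (log2 change 0.52 ± 1.06, SE, adjusted p = 0.828). The part of T cells in the Il17a values was not tested.

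Of 10 myeloid genes, 4 were called higher in DSS+ImP against DSS, Itgam, Ly6c2, Cd14 and Csf1r, and 0 lower, a count that was 2 without DSS+ImP 3, DSS 2 or DSS 5. In this comparison 3.99% of all genes were called higher and 4.04% lower. Of 10 neutrophil genes 8 were called higher and 0 lower, 5 without DSS+ImP 3 or DSS 5. Of 10 epithelial genes 2 were called lower, Cdx2 and Vil1, and 0 higher, a count that ran from 0 to 6 when 1 library was left out: 0 without DSS+ImP 2, DSS+ImP 3, DSS 2, DSS 3 or DSS 5, 1 without Ctrl 4, Ctrl 5 or ImP 1, and 6 without DSS+ImP 4.

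The genes whose pattern over the 12 libraries lay nearest to each cytokine were found by root mean square distance on centred log2 CPM. For Il17a, whose own spread was 1.82, they included Lrrc37a at 0.82 and Ptgdr at 0.87. For Il22, with a spread of 1.63, they were Tac1 at 0.75, Cpn2 at 0.90 and Stom at 0.97. For Il17f, with a spread of 1.36, they were Nox1 at 0.79, Gnat1 at 0.81 and Duoxa2 at 0.86, and for Il23a, with a spread of 1.42, Cngb1 at 0.75, Adam5 at 0.86 and Prtg at 0.87. Il22ra2, added after its values were seen, had a spread of 1.45 and was nearest to Klk1b5 at 0.65, Hsd17b14 at 0.67 and Rgs13 at 0.68. Rgs13 averaged 1.07 CPM in DSS+ImP, 2.35 in DSS, 4.18 in ImP and 6.8 in Ctrl, the same order as Il22ra2.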

How the data were processed

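Colon RNA was extracted with Trizol, enriched with oligo(dT) and sequenced from libraries that mark the strand with dUTP, per the labels' protocols. The submitters' processing notes name cutadapt 1.9, HISAT2 2.0.4 and StringTie 1.3.4d, with no role given. The authors deposited estimated counts and FPKM per gene, and the deposited counts are whole numbers. No source used here says if reads were counted by strand, and the table's coordinates did not match GRCm38 (597 of 33695 shared identifiers), so none are printed. Library totals, 55419380 to 67406087 counts, limit precision by counting error only.

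Counts were tested with edgeR 4.0.16 (R 4.3.3): TMM factors, filterByExpr by group, quasi-likelihood fit over all 12 libraries and Benjamini-Hochberg adjustment over 22279 genes, with a threshold of 0.05. CPM uses TMM-scaled library sizes, and the deposited FPKM gave ratios and levels per length. Alternatives were DESeq2 1.42.0, limma 3.58.1 on log2 (FPKM + 1 or 0.1), no filter, a replicate block, only the groups compared, a trace term and leaving out each library. The labels do not say whether equal replicate numbers pair libraries. The tests were tried on simulated data.

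The 9 genes are always named. From each other list up to 4 genes with the smallest p in DSS+ImP against DSS, and up to 3 elsewhere, are named, and others were chosen after their values were seen. Members and lists were chosen with earlier results of these data known. The liver and pancreas traces sum the listed genes under 1 CPM in at least 1 library, a rule set after seeing the data. Libraries over 50 CPM of liver transcripts formed 1 set, and of the rest those over 5 CPM of pancreas transcripts another. A few listed genes are not reported here.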

Additional observations from a re-analysis of the deposited data

How the results depend on the processing

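No result turned round under any alternative. The log2 changes of chosen comparisons of the axis genes and of list genes already called were recomputed 2460 times. Of these, 2048 kept their direction and side of the threshold and 409 lost the call. The 3 gains were all Il22ra2 in DSS against Ctrl, and list genes not called were left out, so the tally says nothing of gains among them. For DSS+ImP against DSS, 2 genes of the axis were called, 1 with no filter, 0 with limma at a pseudocount of 0.1, 0 with only the groups compared and 0 to 2 with 1 library left out. For DSS+ImP against ImP, 2 were called, 1 with limma at either pseudocount, 1 with only the groups compared and 1 to 2 with 1 library left out. For DSS+ImP against Ctrl, 4 were called and 3 to 4 with 1 library left out. For DSS against Ctrl, 0 were called, 1 with DESeq2, 1 with only the groups compared and 0 to 1 with 1 library left out. ImP against Ctrl and the interaction gave 0 to 0 with 1 library left out. The cause was not tested.

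With the replicate block, 0 genes of the axis were called against DSS, 0 against ImP and 2 against Ctrl. The labels do not say whether equal replicate numbers mark a shared cage, day or batch. Over 9 same-number pairs the correlation of deviations from group means was -0.11 to 0.083. With 3 libraries per group this shows no pairing but cannot exclude it. Il17a, Il17f, Il22 and Il23a rest on few read pairs, which limits what these depths can show, and genes at 0 in a group have fold bounds only.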
